A study of Arabidopsis thaliana with 6 samples.

Results

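The genes described here encode proteins of the large (60S) subunit of the cytosolic ribosome of Arabidopsis. They are 60 loci listed by identifier, out of 20423 genes in the table of the series, and they cover 23 proteins (RPL3 to RPL19, RPL23, RPL24 and RPL26), each made by 2 to 4 gene copies, called paralogs. Of the 60, 59 had a row, and AT3G51190, an RPL8 gene, enters the promoter counts only. The list was drawn up from gene identity and not from expression values, but with earlier results of these data known.

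Wild-type Col-0 seedlings were moved 3 days after germination into liquid 1/2 MS medium, either plain (control) or with 1 µM IAA (indole-3-acetic acid, the most abundant auxin of plants), and kept there for 6 h. Whole roots were then collected, about 100 per replicate, and the labels list 3 libraries per group. RNA was depleted of ribosomal RNA and sequenced on the SOLiD platform. The values are the authors' mean in each group, in reads after division by size factors (normalized reads), so no value, spread or test per library can be given, and every difference below is a difference between 2 means.

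The lowest means lay on whole-number steps, which gives the number of reads behind each mean: 25 to 831 per gene in the control (median 257) and 100 to 2282 after IAA (median 619.5) among the 58 genes with an average of both means of at least 10. From these reads a 95% counting interval (Clopper-Pearson) was computed for each fold (IAA mean over control mean). It covers counting error only and not the spread between libraries, and PCR copies are not independent molecules. In a whole root, more cells that express a gene and more RNA per cell cannot be told apart.

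A ribosomal large subunit is built in the nucleolus from rRNA and a single copy of each protein, apart from some acidic stalk proteins. Those are not among the genes listed here. Some proteins line the tunnel through which the new peptide leaves, others hold the 5S rRNA or form mobile stalks, and the rest pack against the rRNA on the outside. Plants keep several paralogs of nearly every ribosomal protein, and growing tissue such as the root meristem is known for its high expression of these genes.

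After IAA the 60S protein genes were higher as a body. All 58 genes with an average mean of at least 10 had a higher mean after IAA than in the control, where 49.4% of all 11132 genes at that level did. The difference was at least 1.5-fold in 40 of the 58, against 23.6% of all genes, and 0 of the 58 were at least 1.5-fold lower, against 21.9% of all genes. Their median log2 ratio was 0.71 (1.64-fold, quartiles 0.56 and 0.85), whereas that of all genes was -0.01. The counting interval lay above 1 in 54 of the 58, against 24.7% of all genes, and above 1.5 in 19, against 10.3% of all genes. Among the 43 genes with an average mean of at least 100 the count at 1.5-fold or more was 28, against 22.5% of all genes at that level. Summed over the 59 genes, the means were 9618 in the control and 15415 after IAA, or 1.05% and 1.76% of the summed means of all genes.

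**Figure D1:**
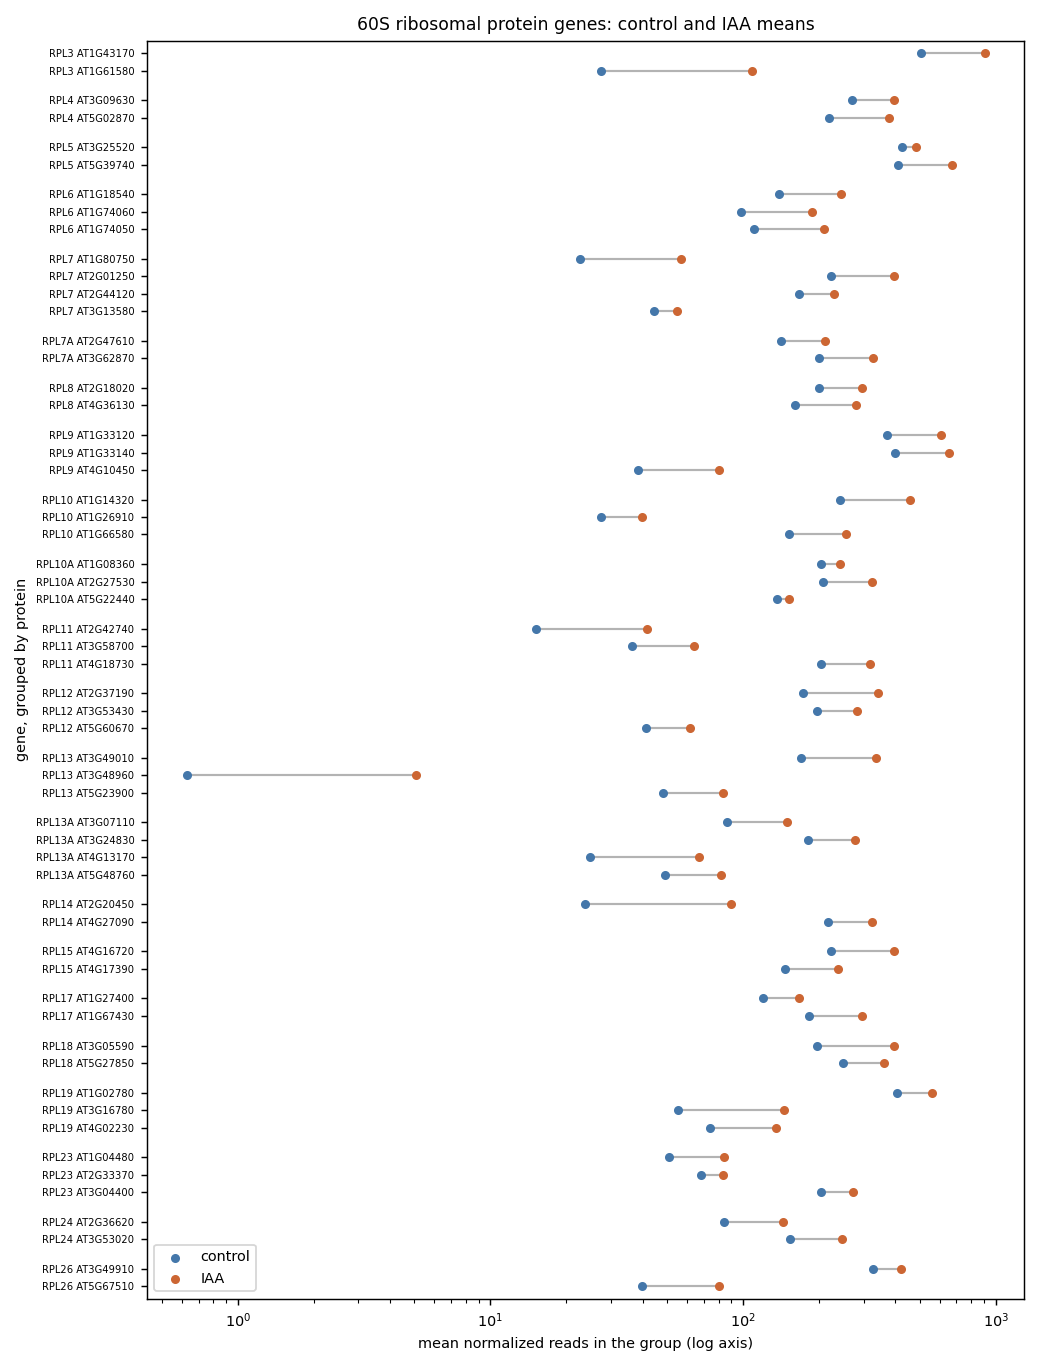
Authors' mean of normalized reads (log axis) in the control and after IAA for 57 of the 59 measured genes, grouped by protein. The IAA point lies to the right of the control point in every line drawn, from 1.12-fold (RPL10A AT5G22440) to 3.94-fold (RPL3 AT1G61580) among genes with an average mean of at least 10, and at 8.03-fold for RPL13 AT3G48960 below it.

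The folds were less widely spread than those of all genes. The SD of the log2 ratios was 0.37 over the 58 genes and 1.07 over all genes. The 2 sets differ in level: 13 of the 58 and 6971 of the 11132 had a control mean of 10 to 50. The SD of all genes at the level of the 58 was not computed. Of the 58, 31 lay between 1.5- and 2-fold, 9 at 2-fold or more and 18 under 1.5-fold. The 9 of 58 at 2-fold or more stand beside 13.0% of all genes, a similar share.

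**Figure D2:**
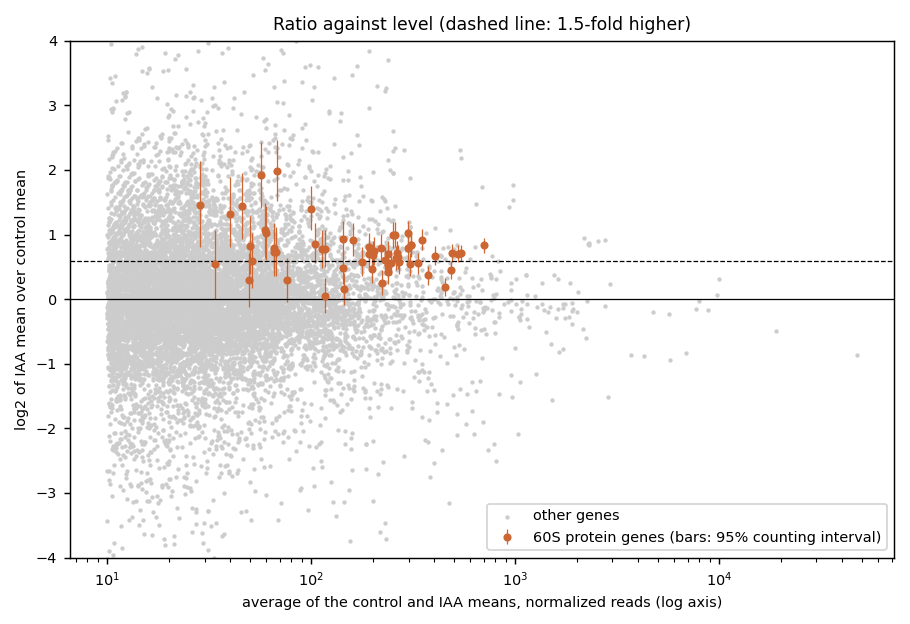
Log2 of the IAA mean over the control mean against the average of both means (log axis) for the 60S protein genes (orange, bars are 95% counting intervals) and other genes (grey), both with an average mean of at least 10. All orange points lie above 0, and 40 lie at or above the dashed line of 1.5-fold. The vertical axis ends at log2 ratios of -4 and 4, beyond which further grey genes lie.

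The treatment was checked with 4 early auxin response genes. GH3.3, an enzyme that conjugates IAA to amino acids, had means of 32.5 in the control and 1698 after IAA, and IAA19, an Aux/IAA repressor, had 3.13 and 197. LBD29, a lateral root regulator, had 1.90 and 130.1. IAA5, another repressor, had 0.59, which stands for about 1 read, and 48.3. Of 6 root identity genes, SCR (31.0 and 37.6), SHR and PLT1 stayed within 1.5-fold, while WER, CASP1 (59.8 and 12.3) and PHO1 (190.1 and 33.3) were lower after IAA. The summed means of 3 leaf photosynthesis genes were 49.0 in the control and 5.8 after IAA. The part of these shifts in the 60S values was not tested.

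The first group of proteins sits at the heart of the subunit, around the peptidyl transferase centre and the exit tunnel. RPL3, whose long loop reaches the peptidyl transferase centre, had RP1 (AT1G43170) as its main copy, with means of 508 and 904 (1.78-fold, interval 1.64 to 1.93). Its paralog RPL3B (AT1G61580) had 27.5 and 108, the highest fold of the 58 genes (3.94-fold, 2.87 to 5.53). The interval of RPL3B lay wholly above that of RP1, and the share of RPL3B in the RPL3 sum was 5.14% in the control and 10.7% after IAA.

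RPL4, which lines the tunnel, had 2 copies of similar level. AT3G09630 had means of 269.8 and 397 (1.47-fold, 1.31 to 1.65). AT5G02870 had 219.8 and 379.9 (1.73-fold, 1.53 to 1.96), and the intervals of both copies overlapped. RPL8, which lies at the peptidyl transferase centre, was similar: EMB2296 (AT2G18020), named after an embryo-defective mutant, had 199.6 and 295 (1.48-fold, 1.299 to 1.69). Its paralog AT4G36130 had 161 and 279 (1.74-fold, 1.504 to 2.01).

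RPL10 joins the subunit late and contacts the tRNA sites. Its main copy was SAC52 (AT1G14320), known from a mutant that suppresses the dwarf phenotype of acaulis5, with means of 242 and 458 (1.89-fold, 1.69 to 2.13). SAG24 (AT1G66580) had 152 and 256 (1.68-fold). RPL10B (AT1G26910) had 27.4 and 39.8 (1.45-fold, 1.00 to 2.09). RPL17, the other tunnel protein, had AT1G67430 as its main copy with 182 and 296 (1.62-fold, 1.42 to 1.86) and AT1G27400 at 1.40-fold.

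RPL5 and RPL11 form a particle with the 5S rRNA before they enter the subunit. The 2 RPL5 genes differed from each other. ATL5 (AT3G25520) had means of 425 and 484 (1.14-fold, 1.04 to 1.252). RPL5B (AT5G39740) had 409 and 671 (1.64-fold, 1.498 to 1.80). The control means of the pair were close, the intervals of their folds did not overlap, and RPL5B held 49.1% of the RPL5 sum in the control and 58.1% after IAA. RPL5B and ATL5 proteins are 97.7% identical.

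RPL11 was made by 3 copies whose proteins are at least 99.5% identical. The symbols RPL16A and RPL16B in the annotation are older names of this protein. RPL16B (AT4G18730) had means of 204 and 317 (1.56-fold, 1.37 to 1.78) and held 79.8% of the sum in the control. RPL16A (AT2G42740) had 15.1 and 41.6 (2.75-fold, 1.74 to 4.39), the lowest control mean among the 58. AT3G58700 had 36.2 and 64.2 (1.77-fold, 1.31 to 2.44). The intervals of RPL16A and RPL16B overlapped only at their ends, and that of AT3G58700 overlapped both.

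The stalk proteins RPL10A and RPL12 help to move tRNAs and to recruit translation factors. RPL10A, the L1 stalk protein, had the lowest fold of the 23 family sums, 1.31-fold (1.21 to 1.42). PGY1 (AT2G27530), named for its leaf polarity mutant piggyback1, had means of 208 and 325 (1.56-fold, 1.38 to 1.78). AT1G08360 had 203 and 242 (1.19-fold, 1.04 to 1.37). AT5G22440 had 136 and 152 (1.12-fold, 0.94 to 1.32), so its interval includes 1. The interval of PGY1 lay above that of AT5G22440 and only just above that of AT1G08360 (ends at 1.376 and 1.368).

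RPL12, at the base of the P-stalk, had a different leading copy in each group by level per coding length, but not per length of unique exonic windows. AT3G53430 had means of 196 and 282 (1.44-fold, 1.26 to 1.65). AT2G37190 had 172 and 343 (1.99-fold, 1.74 to 2.29), and its share of the sum was 42.1% in the control and 49.96% after IAA. The intervals of AT3G53430 and AT2G37190 did not overlap. AT5G60670 was the minor copy with 41.2 and 61.9 (1.505-fold).

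RPL23, RPL24 and RPL19 lie on the face that meets the small subunit. RPL23 carries the binding site of the factor eIF6, which keeps the subunits apart until the large one is mature. Its 3 proteins are 100% identical and all their exonic windows of 60 bases were unique in the genome. The main copy emb2171 (AT3G04400) had means of 204 and 273 (1.34-fold, 1.17 to 1.53). AT1G04480 had 50.8 and 83.8 (1.65-fold, 1.28 to 2.16). AT2G33370 had 68.2 and 83.4 (1.22-fold, 0.96 to 1.55). The 3 intervals overlapped one another.

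RPL24 includes STV1 (AT3G53020), which in Arabidopsis is known to help ribosomes restart on auxin response factor mRNAs with upstream reading frames. STV1 had means of 153 and 247 (1.61-fold, 1.39 to 1.87). RPL24A (AT2G36620) had 83.9 and 143 (1.71-fold, 1.40 to 2.098). The RPL24 pair kept its shares, with STV1 at 64.7% in the control and 63.3% after IAA.

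RPL19, which forms a bridge to the small subunit, had 3 copies. The main copy emb2386 (AT1G02780), another gene named after an embryo-defective mutant, had means of 408 and 558 (1.37-fold, 1.245 to 1.5). AT3G16780 had 55.1 and 145 (2.64-fold, 2.09 to 3.36). AT4G02230 had 74.1 and 135 (1.81-fold, 1.47 to 2.26). The intervals of emb2386 and AT3G16780 did not overlap, and that of AT4G02230 overlapped both. The share of emb2386 in the RPL19 sum was 76.0% in the control and 66.6% after IAA.

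The other proteins pack against the rRNA, most of them on the outer side. RPL9, near the site where translation factors bind, had the highest level per length: its summed means per kb of coding sequence were 1384 in the control and 2293 after IAA, where the other families lay between 351 and 921 in the control. Its 2 main copies, PGY2 (AT1G33140), also named for a leaf mutant of the piggyback series, and AT1G33120, encode identical proteins and lie near each other on chromosome 1. PGY2 had means of 401 and 652 (1.63-fold), and AT1G33120 had 371 and 609.6 (1.64-fold). Only 42.4% and 46.7% of their exonic windows were unique, so reads of this pair were partly lost to the authors' unique mapping. AT4G10450 had 38.3 and 80.2 (2.09-fold, 1.56 to 2.80).

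RPL18 was another protein with a different leading copy in each group. RPL18 (AT3G05590) had means of 196 and 398 (2.03-fold, 1.78 to 2.30). Its paralog AT5G27850 had 249.5 and 362 (1.45-fold, 1.29 to 1.63). The intervals did not overlap, and the share of AT3G05590 was 44.0% in the control and 52.4% after IAA. For RPL26, at the exit of the tunnel, AT3G49910 had 327 and 422 (1.29-fold, 1.16 to 1.43). AT5G67510 had 39.8 and 80.5 (2.02-fold, 1.52 to 2.72).

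RPL14 held the largest shift of shares. AT4G27090 had means of 217 and 324 (1.49-fold, 1.31 to 1.69). AT2G20450 had 23.7 and 89.3 (3.77-fold, 2.65 to 5.39). Their intervals were far apart, and AT2G20450 held 9.81% of the RPL14 sum in the control and 21.6% after IAA.

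RPL13A had 4 copies. The main copy AT3G24830 had means of 181.5 and 277 (1.52-fold, 1.33 to 1.75). AT4G13170 had 24.8 and 67.2 (2.71-fold, 1.90 to 3.87), and its interval lay above that of AT3G24830. The copies AT3G07110 and AT5G48760 had folds of 1.72 and 1.66.

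RPL13 had the highest fold of the family sums, 1.95-fold (1.73 to 2.204). BBC1 (AT3G49010) had means of 169 and 336 (1.99-fold, 1.74 to 2.29). AT5G23900 had 48.2 and 83.2 (1.73-fold, 1.32 to 2.26). AT3G48960, the copy below the minimum of 10, had 0.63 and 5.06, which stand for 1 and 13 reads (8.03-fold, interval 1.26 to 358).

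RPL7 was made by 4 copies, of which AT1G80750 stands apart in sequence: it is 41.9 to 42.9% identical to the others, which are 89.1 to 90.2% identical to each other. The main copy AT2G01250 had means of 223 and 397 (1.78-fold, 1.58 to 2.02). AT1G80750 had 22.7 and 56.9 (2.50-fold, 1.75 to 3.72). AT3G13580 had 44.4 and 54.8 (1.23-fold, 0.92 to 1.65), with an interval that overlapped that of AT2G01250 slightly and includes 1, and AT2G44120 had a fold of 1.38.

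RPL6, RPL7A and RPL15 had even folds among their copies. The main copies of RPL6 (AT1G18540, 139 and 243), RPL7A (AT3G62870, 199.9 and 327) and RPL15 (AT4G16720, 223 and 396) had folds of 1.75, 1.63 and 1.78. The neighbouring RPL6 copies AT1G74050 and AT1G74060 had 1.89 and 1.91, RPL7A AT2G47610 had 1.495 and RPL15 AT4G17390 had 1.62. All these copies kept their shares within 2.24 percentage points.

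Summed per protein, the differences were more even than gene by gene. Of the 23 family sums, 18 were at least 1.5-fold higher after IAA and all 23 intervals lay above 1, with folds from 1.31 (RPL10A) to 1.95 (RPL13) and a median of 1.64. The SD of the log2 ratios was 0.15 over the sums and 0.37 over the genes. It was 0.20 over the 19 genes with a control mean of 200 or more. Sums rest on more reads and weigh copies by level, so a smaller SD is partly built in. The same copy had the highest level per coding length in both groups in 20 families, the exceptions being RPL5, RPL12 and RPL18. Per length of unique exonic windows, a measure added after the data were seen, it was 22 families, with RPL18 as the exception, since RPL5B and RPL12 AT2G37190 then led in the control too.

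**Figure D3:**
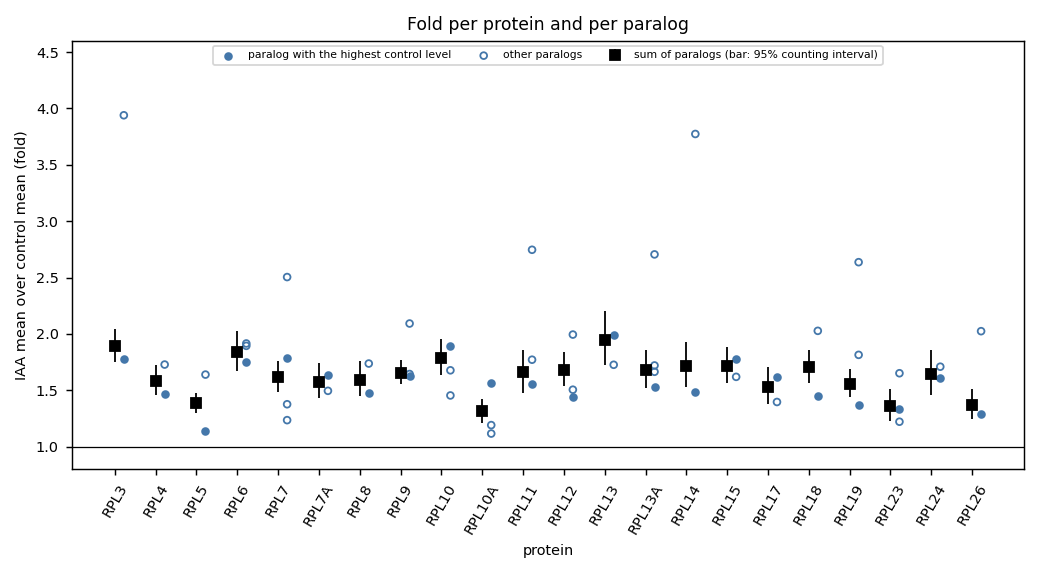
Fold of the IAA mean over the control mean for 22 of the 23 proteins (black squares, sum of its paralogs with 95% counting interval) and for its paralogs with an average mean of at least 10 (filled circle: highest control level per length). The sums lie between 1.31 and 1.95, while single paralogs reach 3.94 (RPL3) and 3.77 (RPL14). RPL13 AT3G48960, with an average mean under 10, is in the sum but not drawn.

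The copy of lowest level often had the higher fold. The copy with the lowest control level per length had a higher fold than the main copy in 17 of 23 families, with median folds of 1.74 and 1.56, and 0 main copies reached 2-fold. In 12 families the main copy had at least 3 times the control level of the lowest. The lowest had the higher fold in 11 of them (8 ranked by the IAA level) and in 6 of the 11 other families. Some of these copies hardly differed in level (RPL5, 1.04 times), had overlapping intervals (RPL12, RPL24) or rest on 1 control read (RPL13 AT3G48960). Of the 9 genes at 2-fold or more, 8 were among the 15 with a control mean under 60 and 1 (RPL18 AT3G05590) among the 43 others, a divide chosen after the values were seen. All genes divided the same way, with 16.0% at 2-fold or more below a control mean of 60 and 3.65% at or above it. A low control mean enters the fold itself as its denominator, so the ranking bears on it: ranked by the IAA level the count was 12 families, and by the average of both means 15. Spearman's rho of level per length and log2 ratio was -0.43 over the 58 genes with the control level, -0.23 with the IAA level and -0.31 with the average. Over all 11132 genes, by means not divided by length, it was -0.35, 0.34 and 0.00 in the same order. These points share libraries and size factors, and the rho values are descriptions.

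By control mean, the median fold was 2.02 for the 13 genes from 10 to 50, 1.72 for the 7 from 50 to 100, 1.62 for the 19 from 100 to 200 and 1.56 for the 19 above. Their median log2 ratios were 1.02, 0.78, 0.70 and 0.64 in that order, and those of all genes in the same bands were -0.02, -0.19, -0.20 and -0.25, so the medians of all genes were also lower at higher control means. The SD of the log2 ratios was 0.52, 0.33, 0.26 and 0.20 in that order. The spread between genes thus was smaller where reads were more numerous.

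Protein identity of the copies was set beside the difference of their folds. Over 51 measured pairs of paralogs, rho between protein identity and the size of the difference in log2 ratio was -0.43, and it was -0.36 over 49 pairs without those of AT3G48960, which rests on 1 control read. Over the same 51 pairs, rho between the difference in control level per length and the difference in log2 ratio was 0.46. The parts of identity and level were not tested apart. Pairs share genes, so these values are descriptions. Of 8 pairs at least 99% identical, RPL16A and RPL16B differed most, by 0.82 on the log2 scale. Their counting intervals overlapped at the ends (1.74 to 4.39 and 1.37 to 1.78), and those of the other such pairs overlapped too. Among less identical pairs, ATL5 and RPL5B (97.7%) had intervals that did not overlap.

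Promoters are shown for the 3 families with the widest gap between main and minor copy among genes with an average mean of at least 10, RPL3, RPL14 and RPL19, so that the copies can be compared. Each sequence is the 150 bases before the annotated transcript start in the RefSeq annotation of TAIR10.1, read 5′ to 3′ on the strand of the gene. Capitals mark the telo box (AAACCCTA, an element of genes for the translation machinery) and site II (TGGGCC or TGGGCT, bound by TCP transcription factors), each searched on both strands. RP1 lies at chr1:16266403-16266552 (plus strand) and RPL3B at chr1:22723153-22723302 (minus strand). The RPL14 promoters lie at chr4:13595253-13595402 (AT4G27090, minus strand) and chr2:8813682-8813831 (AT2G20450, plus strand, overlapping the neighbouring gene AT2G20440). The RPL19 promoters lie at chr1:609535-609684 (emb2386, minus strand) and chr3:5708676-5708825 (AT3G16780, plus strand).
RP1: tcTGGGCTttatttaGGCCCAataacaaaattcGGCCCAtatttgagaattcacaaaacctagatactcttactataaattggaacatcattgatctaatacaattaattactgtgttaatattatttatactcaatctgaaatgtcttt
RPL3B: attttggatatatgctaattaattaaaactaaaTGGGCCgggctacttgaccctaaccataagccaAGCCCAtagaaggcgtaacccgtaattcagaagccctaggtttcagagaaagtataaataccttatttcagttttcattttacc
RPL14 AT4G27090: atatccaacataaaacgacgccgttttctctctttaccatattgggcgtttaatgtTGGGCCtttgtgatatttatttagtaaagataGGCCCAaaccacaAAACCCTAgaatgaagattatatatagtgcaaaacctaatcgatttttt
RPL14 AT2G20450: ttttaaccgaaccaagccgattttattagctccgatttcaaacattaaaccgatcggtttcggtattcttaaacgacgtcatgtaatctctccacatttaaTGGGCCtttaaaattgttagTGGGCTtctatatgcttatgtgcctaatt
RPL19 emb2386: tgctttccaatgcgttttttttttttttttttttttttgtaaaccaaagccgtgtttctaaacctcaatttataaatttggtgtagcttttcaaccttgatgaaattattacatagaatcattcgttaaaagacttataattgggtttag
RPL19 AT3G16780: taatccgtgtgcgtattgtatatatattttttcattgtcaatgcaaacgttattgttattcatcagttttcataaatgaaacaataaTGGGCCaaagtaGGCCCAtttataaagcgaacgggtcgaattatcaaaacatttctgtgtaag

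RP1 held 3 site II matches here and RPL3B 2, and neither held a telo box. Both RPL14 copies held 2 site II matches, and AT4G27090 also a telo box at -49. AT3G16780 held 2 site II matches, at -63 and -51, whereas those of emb2386 began after the start, at 3 and 21. The telo boxes of AT2G20450 and AT3G16780 began after the start, at 12 and 42.

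Over all 60 genes, site II occurred in 53 (88.3%) in the window from 250 bases before to 50 bases after the start, against 21.72% of 27443 protein-coding promoters. It occurred 131 times, most often just before the start (median position -44, quartiles -77 and -8), and 45 genes (75%, against 13.66% of all promoters) held 2 or more, up to 5 in PGY2 and STV1. The telo box occurred in 33 genes (55.0%), against 6.22% of all promoters, at a median position of 2. Counted only in the 250 bases before the start, site II occurred in 45 genes, against 19.18%, and the telo box in 14, against 4.49%. Both elements occurred in 29 genes (48.3%), against 2.2% of all promoters. Neither occurred in 3 genes, against 74.26% of all promoters, namely RPL6 AT1G74050, RPL7 AT3G13580 and RPL13 AT3G48960.

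**Figure D4:**
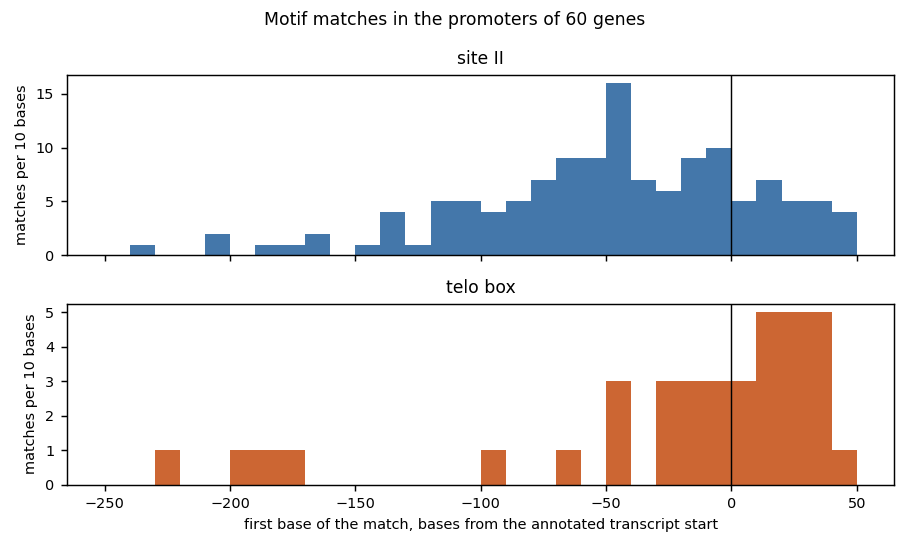
Number of site II (top) and telo box (bottom) matches per 10 bases, by distance of the first base of the match from the annotated transcript start, over the promoters of 60 genes. Site II matches lie mostly before the start (median -44) and telo box matches around and after it (median 2).

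Within the 58 genes, folds with and without each element were set side by side. The median log2 ratio was 0.71 in the 32 with a telo box and 0.72 in the 26 without, and 0.72 in the 52 with site II and 0.61 in the 6 without. TGTCTC, an auxin response element added after the data were seen, occurred in 11 of 60 genes (18.3%) against 14.19% of promoters, with median log2 ratios of 0.79 with it and 0.71 without. A match is a description of letters and not a site in use.

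Other genes of the ribosome stood beside these. Of all genes, 23.6% were at least 1.5-fold higher and 21.9% lower. Of 49 other 60S protein genes (RPL21 to RPL40) with an average mean of at least 10, 29 were at least 1.5-fold higher and 0 lower, with a median log2 ratio of 0.63. Of 76 genes for the small (40S) subunit, 49 were higher and 0 lower, with a median of 0.73. Of 11 P-stalk genes, 4 were higher and 0 lower, with a median of 0.49.

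Genes for 60S assembly factors, which help to build the subunit and are not part of it, were further up. Of 18, 17 were at least 1.5-fold higher and 0 lower, with a median of 1.5 (2.83-fold). Their levels were lower: 5 of the 18 had an average mean of at least 100, against 43 of the 58 genes described here. The part of level in this difference was not tested. Of 20 genes for the 50S subunit of the plastid ribosome, 0 were at least 1.5-fold higher (23.6% of all genes) and 7 lower (21.9%). Their median was -0.35, and 6 of the 20 had a higher mean after IAA. An average mean of at least 100 was reached by 0 of them. These lists were chosen with earlier results known and were compared by counts and medians only.

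**Figure D5:**
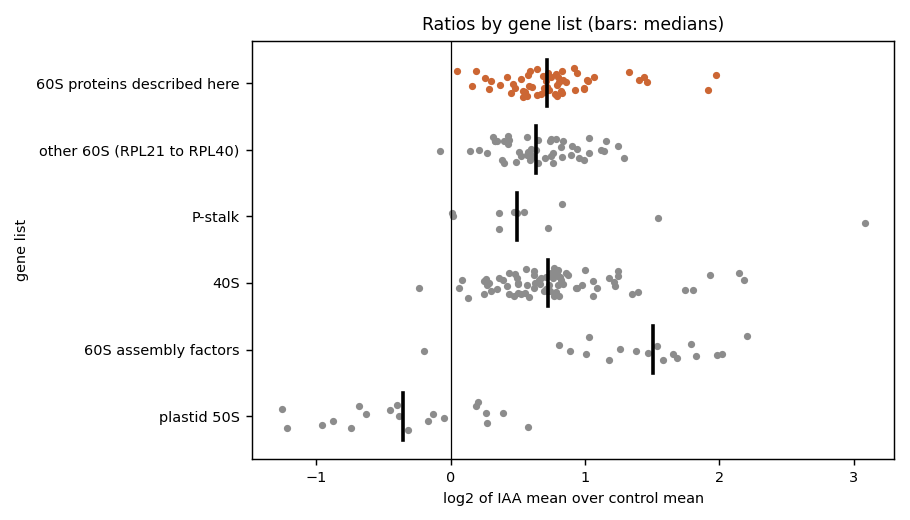
Log2 of the IAA mean over the control mean for each gene with an average mean of at least 10, by list, with the median as a black bar. The 60S genes described here (median 0.71), the other 60S genes (0.63) and the 40S genes (0.73) have similar medians. Their highest folds are 3.94, 2.44 and 4.55 in that order, and 58 of 58, 48 of 49 and 75 of 76 lie above 0. The P-stalk genes have a median of 0.49 and a highest fold of 8.49. The assembly factors lie higher (1.5) and the plastid genes lower (-0.35).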

How the data were processed

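The labels and the paper describe 3 libraries per group. The authors mapped SOLiD reads to TAIR10 with SHRiMP, counted uniquely mapped reads per gene with htseq-count and compared groups with DESeq. The deposited signal values used here are the authors' mean normalized reads per group (counts divided by size factors). The table also holds the authors' folds, log2 folds, p-values and adjusted p-values, which were not used. Values up to 3 lay on whole-number sums of 2 steps per group (0.5895 and 0.634 in the control, 0.3665 and 0.4255 after IAA), as an average over 2 libraries would give, while the labels list 3. How many libraries lie behind each mean was not given in the sources used here.

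Folds were IAA mean over control mean with no pseudocount, counted past 1.5-fold among genes with an average mean of at least 10. Reads behind a mean were the mean divided by the average step (0.612 and 0.396). Levels were divided by coding length. Protein identity came from global alignments of reference proteins translated from the RefSeq annotation of TAIR10.1, to which 20192 of 20423 identifiers matched. The deposited values hold no coordinates. Genes could be named, with full values for main copies, the widest pair per family, the 5 highest and 5 lowest folds and genes under the minimum. The genes of 1 protein enter the counts and medians but are not reported here. Members and lists were chosen with earlier results of these data known. Alternatives were other pseudocounts, minimums, scalings, folds, promoter windows and ranking levels. The steps and intervals were tested on simulated data with known folds. The simulation used 2 libraries per group, steps close to the fitted ones and counting error only. It therefore could not test the number of libraries or the spread between them. Software was Biopython 1.88, matplotlib 3.10.9, scipy 1.17.1, pandas 2.3.3 and numpy 2.4.6 under Python 3.11.15.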

Additional observations from a re-analysis of the deposited data

How the results depend on the processing

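No paired analysis was possible because the deposited values are group means, and for the same reason no library could be left out and no spread between libraries is known. The count of 40 of 58 genes at least 1.5-fold higher stands beside 23.6% of all genes. It was 20 of 30 with an average mean of at least 200 (22.2% of all genes at that level). At 2-fold it was 9 of 58 (13.0% of all genes). Under the other alternatives the count lay between 37 and 52. The 37 were of 53 genes with an average mean of at least 50 (22.4% of all genes at that level). The 52 of 58 came with the lowest fold limit used (33.3% of all genes). With the sums of both groups set equal the count was 47 of 58 (25.8% of all genes). That scaling moved the median of all genes by 0.07. The lowest fold limit and the equal sums thus raised the share of all genes too. No gene was lower past the fold under any alternative run. The median log2 ratio of the genes stayed between 0.69 and 0.79 and that of the family sums between 0.68 and 0.79. Without the 9 genes that share exonic windows, a choice made after the data were seen, the gene median was 0.70. Genes with a telo box numbered 14 in place of 33 when only the 250 bases before the start were searched, as 19 of 37 matches lie after it. Families whose copy of lowest level had the higher fold numbered 12 to 17 by the level used for ranking, and 14 with levels per length of unique windows, settings chosen after the data were seen. Genes with few reads have wide intervals, so folds of minor copies are the least certain.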
